A study of Mus musculus with 2 samples.

Results

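The Krüppel-like factors are a family of transcription factors that bind GC-rich and CACCC-type DNA elements through zinc fingers at the carboxyl end of the protein. The 10 genes described here are Klf2, Klf4 and Klf5, known from the naive state of mouse embryonic stem cells, and Klf3, Klf6, Klf9, Klf10, Klf13, Klf15 and Klf16, the rest. They were chosen by gene symbol out of 17 Klf genes and 47643 gene IDs in the count files. The symbols are the GENCODE M21 names of the Ensembl IDs, and the list was made with earlier results of these data known. Messenger RNA was sequenced from mouse E14 embryonic stem cells, a line of blastocyst origin on the 129/Ola background. Their genotype is given as AGO1 and AGO2 double knockout, and the products of both genes carry microRNAs to target transcripts. The 2 libraries, replicate 1 and replicate 2, both have this genotype, and no unmodified cells were analysed here, so a level or a difference below says nothing about the effect of losing either gene. The cells grew on 0.2% gelatine, with no feeder cells named, in 15% serum and 100 U/mL LIF. Separate cultures or clones are not stated for the libraries, so their spread may be technical.

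In mouse embryonic stem cells the LIF receptor activates STAT3, which induces Klf4, and Klf2, Klf4 and Klf5 bind many sites that Oct4, Sox2 and Nanog also bind. Loss of any single one is tolerated better than loss of all of them together, and Klf4 is one of the factors used to reprogramme somatic cells. Outside this circuit the family splits by cofactor. Klf3 represses through CtBP, Klf9, Klf10, Klf13 and Klf16 repress through Sin3A, and Klf6 mostly activates.

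The libraries held 34798975 gene counts in replicate 1 and 29789560 in replicate 2. Ago1 stood at 70.8 and 141 CPM, counts scaled to a common library total, and Ago2 at 124 and 129 CPM in replicates 1 and 2. These counts sum all exons and check no genotype. All 6 embryonic stem cell markers reached 1 CPM in both libraries, with summed levels of 6118 and 5770 CPM. Of 7 fibroblast markers 2 reached 1 CPM, Thy1 and Col1a1, at summed levels of 26.8 and 26.2 CPM for the list, and Col3a1, Lum and Postn had no count. Extraembryonic endoderm markers summed to 6.61 and 5.04 CPM with 1 of 5 at 1 CPM, and trophoblast markers to 7.16 and 5.87 CPM with 1 of 5. The part of such cells in the results was not tested. With all 10 members at 1 CPM or more in both libraries, against 58.0% of the 21620 protein-coding genes, no member was lost to a filter on low values. Earlier results were known when the list was made, so this contrast is only descriptive.

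Klf2 was the dominant member of the family, and Klf4 and Klf5 were not set apart from the rest. To compare genes, counts were divided by the length of all merged exons and scaled to a common total, a level written as TPM. Klf2 stood at 497 TPM in replicate 1 and 585 TPM in replicate 2, and Klf10, the second member, at 76.0 and 80.6 TPM. Klf2 thus exceeded Klf10 by 6.54-fold and 7.26-fold in TPM, and its values overlapped those of no other member. Klf4 and Klf5 lay inside the range of the rest in each library, which ran from 17.7 to 76.0 TPM in replicate 1 and from 17.5 to 80.6 TPM in replicate 2.

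**Figure D1:**
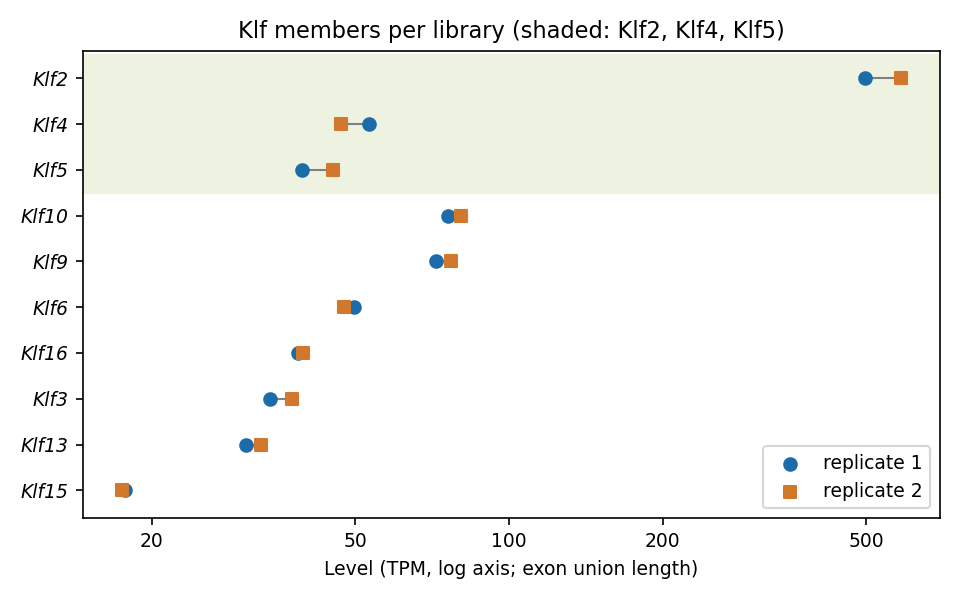
Level of each Klf member in TPM on a log axis, with a circle for replicate 1 and a square for replicate 2; the shaded rows are Klf2, Klf4 and Klf5 and the others are ordered by mean. Klf2 lies at 497 and 585 TPM, and the other members lie between 17.5 and 80.6 TPM.

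Of the naive-state members, Klf2 (ENSMUSG00000055148, GRCm38 chr8:72319033-72321656, plus strand) also acts in endothelial and lung development. It had 11566 and 11705 counts in replicates 1 and 2, or 332 CPM (exact Poisson 95% interval 326 to 338) and 393 CPM (386 to 400.1). Its mean of 541 ± 62.1 TPM (SD, n = 2) stood at percentile 98.5 of the 12530 protein-coding genes that reached 1 CPM in both libraries. Klf4 (ENSMUSG00000003032, chr4:55527143-55532466, minus strand), needed for the skin barrier as well, had 53.3 and 47.0 TPM, a mean of 50.1 ± 4.47. Klf5 (ENSMUSG00000005148, chr14:99298691-99315036, plus strand), also needed in the trophectoderm, had 39.4 and 45.2 TPM, a mean of 42.3 ± 4.08. Klf2 was 9.33-fold and 12.5-fold above Klf4 and 12.6-fold and 13.0-fold above Klf5 in TPM in replicates 1 and 2. Klf4 and Klf5 stood at percentiles 78.3 and 74.3 of the same genes, well below Klf2.

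Among the members linked to Sin3A, Klf10 and Klf9 led. Klf10 (ENSMUSG00000037465, chr15:38291463-38300706, minus strand), an early gene of the TGF-beta response, averaged 78.3 ± 3.25 TPM. Klf9 (ENSMUSG00000033863, chr19:23141226-23168134, plus strand), induced by glucocorticoid and thyroid hormone, had 72.0 and 77.0 TPM in replicates 1 and 2, so its values overlapped those of Klf10. Klf16 (ENSMUSG00000035397, chr10:80567124-80577321, minus strand) had 38.6 and 39.5 TPM. Klf13 (ENSMUSG00000052040, chr7:63886351-63938915, minus strand), which acts in lymphocytes, had 30.6 and 32.7 TPM. On merged exon length both lay below Klf9 and Klf10 in each library. With the mean coding transcript as length Klf13 lay above Klf9, at 51.5 and 55.4 TPM against 43.0 and 46.3 TPM.

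The other members differ in their partners. Klf6 (ENSMUSG00000000078, chr13:5861482-5870394, plus strand), a widely expressed activator, had 49.8 and 47.6 TPM in replicates 1 and 2, which overlapped the values of Klf4; with the mean coding transcript as length Klf6 averaged 28.3 TPM and Klf4 58.1 TPM. Klf3 (ENSMUSG00000029178, chr5:64803388-64832901, plus strand), the CtBP-dependent repressor, had 34.1 and 37.6 TPM. It had the most counts after Klf2, 4827 and 4575, but its merged exons span 11243 bases against 1847 for Klf2. It is also the 1 member whose exons overlap another gene, by 404 bases with the opposite-strand Gm20033, which had 31 and 27 counts; the strand setting of the counting is not given, so these reads may not be told apart. Klf15 (ENSMUSG00000030087, chr6:90462576-90475238, plus strand), a glucocorticoid-induced regulator of metabolism in liver, heart and muscle, was the lowest member at 17.7 and 17.5 TPM. It stood at percentile 50.3 of the expressed protein-coding genes, so the lowest member still lay at their middle.

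In mean TPM the order was Klf2, Klf10, Klf9, Klf4, Klf6, Klf5, Klf16, Klf3, Klf13 and Klf15. Neighbours whose library values overlapped were Klf10 and Klf9, Klf4 and Klf6, and Klf5 and Klf16. The order of Klf4 and Klf6 depended on the library, with a TPM ratio of Klf4 to Klf6 of 1.07 in replicate 1 and 0.986 in replicate 2. The other neighbours did not overlap.

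Klf2, Klf10 and Klf15 kept ranks 1, 2 and 10 under each of 3 ways to take gene length, and the other members changed rank. With the longest annotated transcript as length, Klf2 stood at 426 TPM, 4.77-fold and 5.29-fold above Klf10. With the mean length of the protein-coding transcripts it stood at 303 TPM, and the ratio to Klf10 was 2.48 and 2.75. Klf3 moved most in ratio, with 35.8 TPM on merged exons, 60.7 TPM on its longest transcript and 110.1 TPM on the mean coding transcript. Its rank among the 10 was 8, 4 and 3. Klf4 and Klf5 lay within the range of the rest under all 3 lengths.

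**Figure D2:**
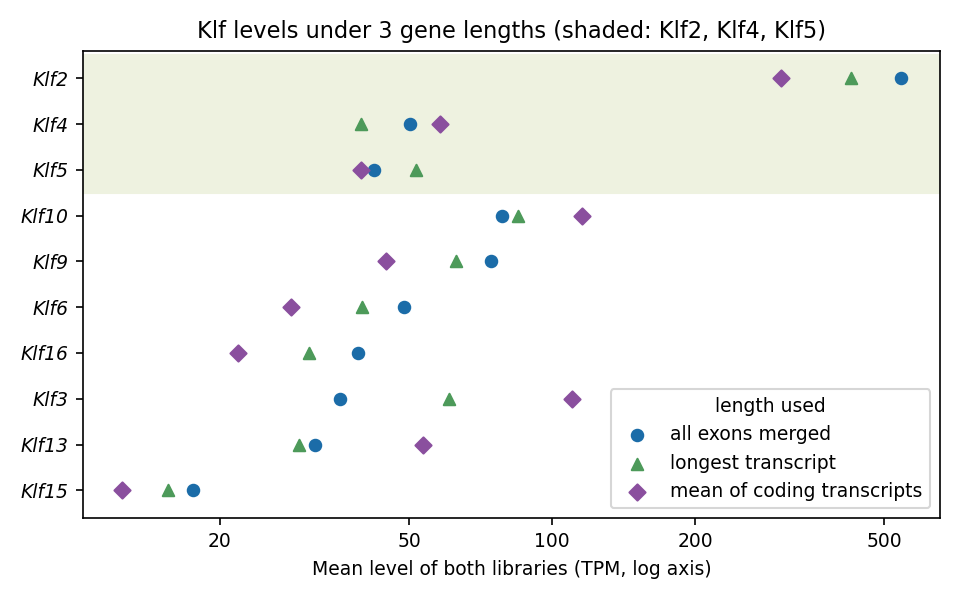
Mean TPM of both libraries on a log axis under 3 gene lengths, with circles for merged exons, triangles for the longest transcript and diamonds for the mean of coding transcripts; the shaded rows are Klf2, Klf4 and Klf5. Klf2 stays the highest at 303 to 541 TPM, while Klf3 moves between 35.8 and 110.1 TPM.

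Klf2, Klf4 and Klf5 together held 64.9% of the TPM of the 10 members in replicate 1 and 67.1% in replicate 2. Klf2 alone held 54.7% and 58.0%, and Klf4 with Klf5 held 10.2% and 9.13%. In counts, which favour long transcripts, Klf2, Klf4 and Klf5 made up 43.8% (exact Clopper-Pearson 95% interval 43.3 to 44.3%) in replicate 1 and 45.6% (45.1 to 46.1%) in replicate 2. Intervals cover counting error only. The median log2(TPM + 1) was 5.76 and 5.58 for the naive-state members, against 5.31 and 5.34 for the rest. This difference of medians was 0.45 and 0.24, a mean of 0.35 ± 0.15. On merged exon length it rests on Klf4, the middle of the 3 values in each library, and in CPM it turned to -0.12. The difference of means, which Klf2 enters in full, was 1.31 ± 0.0225, whereas the mean of Klf4 and Klf5 alone lay 0.24 and 0.22 above the median of the rest. Members are not replicates, so no test was made. The median over all expressed protein-coding genes was 4.21 and 4.18.

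The libraries differed at several members by more than counting error, in both directions among the naive-state genes. Klf2 had 332 CPM in replicate 1 and 393 CPM in replicate 2, a log2 ratio of replicate 2 over replicate 1 of 0.24 ± 0.02 (counting SE). Its adjusted p was 1.92e-34 in a two-sided exact binomial test, adjusted by Benjamini and Hochberg's method over 19078 genes. Klf5, with 74.2 and 85.4 CPM, was also higher in replicate 2, by 0.20 ± 0.04 (exact binomial adjusted p = 8.42e-06). Klf4, with 58.8 and 52.1 CPM, was lower in replicate 2, by a log2 ratio of -0.18 ± 0.05 (exact binomial adjusted p = 0.00199). The ratio of Klf4 to Klf5 in TPM was therefore 1.35 in replicate 1 and 1.04 in replicate 2.

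In the rest, Klf3 (0.14 ± 0.03), Klf9 (0.10 ± 0.03), Klf13 (0.10 ± 0.04) and Klf10 (0.09 ± 0.03) were higher in replicate 2 in log2 ratio, with exact binomial adjusted p-values of 1.7e-05, 0.00797, 0.045 and 0.0322. Klf16 (0.04 ± 0.06), Klf15 (-0.01 ± 0.09) and Klf6 (-0.06 ± 0.04) did not pass. The test thus called 7 of 10 members, against 24.2% of all tested genes, 32.0% of the 13553 genes that reached 100 counts and 39.5% of the 8358 genes that reached 1000 counts over both libraries, as every member did. Of these 6 were higher in replicate 2, against 11.2% of all tested genes, and 1 was lower, against 13.1%. The median absolute log2 ratio over the genes with at least 100 counts was 0.12, so 4 members, Klf2, Klf5, Klf4 and Klf3, differed by more than this.

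**Figure D3:**
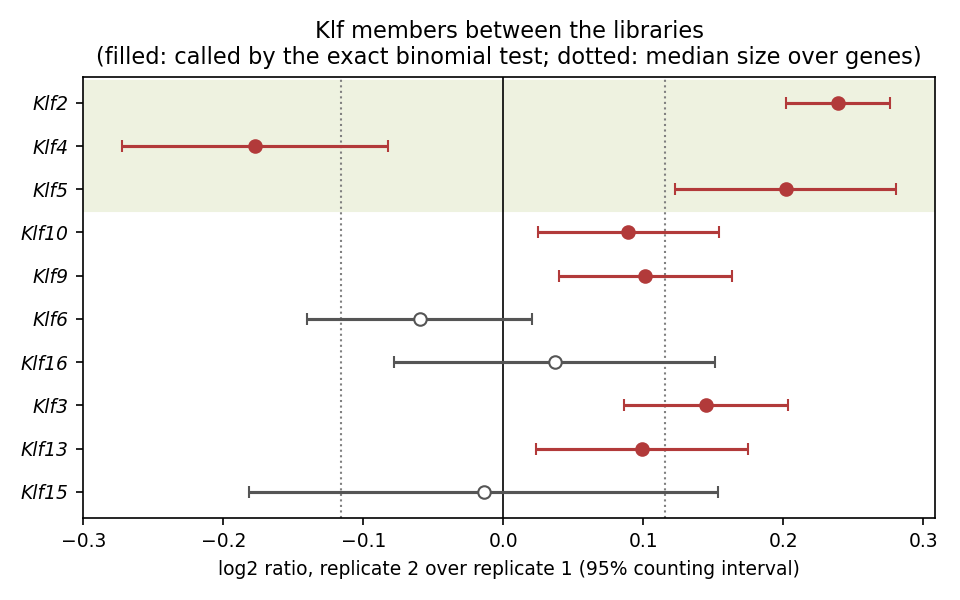
Log2 ratio of replicate 2 over replicate 1 for each Klf member with its 95% counting interval; filled points passed the exact binomial test, and dotted lines mark the median absolute ratio over genes of 0.12. Klf2 (0.24) and Klf5 (0.20) lie to the right and Klf4 (-0.18) to the left.

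These calls weigh the libraries' reads against counting error and compare no conditions. With the spread of these libraries included, edgeR's exact test called 0 of 10 members, against 0.440% of all tested genes, and 0 members had an unadjusted p under 0.05. That spread was estimated from the same 2 libraries, so the test could hardly call ratios as small as these. The smallest unadjusted p in that test was 0.0612, for Klf2. A p that misses the threshold does not show that the levels were equal. Log2 ratios were lower in genes of higher GC content (Spearman rho -0.283 over the 13553 genes, which are no independent replicates). Klf2 has a GC content of 61.6% and Klf4 one of 54.6%. After removal of the trend on GC content and length Klf2 had a ratio of 0.30, Klf4 had -0.11 and no longer passed the exact binomial test (adjusted p = 0.0763), and neither did Klf10 (0.107). Klf6 then passed (-0.11, exact binomial adjusted p = 0.0321), and Klf13 had 0.18 in place of 0.10. In all 6 of 10 members were then called, against 21.2% of all tested genes. Ago1 also differed between the libraries, by a log2 ratio of 0.99, and was called by edgeR's exact test too (adjusted p = 1.33e-08). Its part in these differences was not tested.

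The 10 members had a median of 45.5 TPM, against 1.85 TPM for the 7 Klf genes outside the list, of which 4 reached 1 CPM in both libraries. Since the list was made with earlier results known, this gap is no finding about the members. Klf8, a CtBP-dependent repressor, averaged 30.3 ± 0.0742 TPM and Klf11, a TGF-beta-responsive relative of Klf10, 25.2 ± 0.635 TPM, both above Klf15. Klf7, which acts in neurons, averaged 9.21 ± 0.697 TPM, and Klf12 1.85 ± 0.206 TPM. Klf1, the factor of red cell development, had 14 and 10 counts in replicates 1 and 2. Klf17, known from oocytes and germ cells, had 11 and 4, and Klf14 had 2 and 4 counts, around the floor of 3. The exact binomial test called none of the 6 that had at least 10 counts, against 24.2% of all tested genes, and Klf1 and Klf17 had few counts to show a difference. edgeR's exact test called 0 of them, against 0.440%, with 0 at an unadjusted p under 0.05. With these genes added, the share of Klf TPM held by Klf2, Klf4 and Klf5 was 61.7% ± 1.73.

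The members share the DNA-binding end of the protein, a trait of the family, so the choice by symbol set this in advance. Translated GENCODE coding sequences of all 17 Klf genes held 1 block of 81 residues with 3 zinc fingers of fixed spacing near the carboxyl end. In Klf2 it covered residues 273 to 353 of 354 and in Klf4 residues 402 to 482 of 483. Between Klf2 and Klf4 91.4% of residues of the block were identical, the highest of the 45 member pairs, whose median was 65.4%. Klf5 was closer to Klf3 (86.4%) and Klf6 (84.0%) than to Klf4 (82.7%) and Klf2 (81.5%). Klf9, Klf10, Klf13 and Klf16 formed a second group with 71.6 to 81.5% among themselves, and Klf15 had at most 67.9% with any member. The nearest Klf gene outside the 10 was Klf7 for Klf6, at 95.1%, and Klf12 for Klf3, at 91.4%. By sequence, then, Klf3 and Klf6 lay with Klf2, Klf4 and Klf5, while by level Klf2 stood alone.

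**Figure D4:**
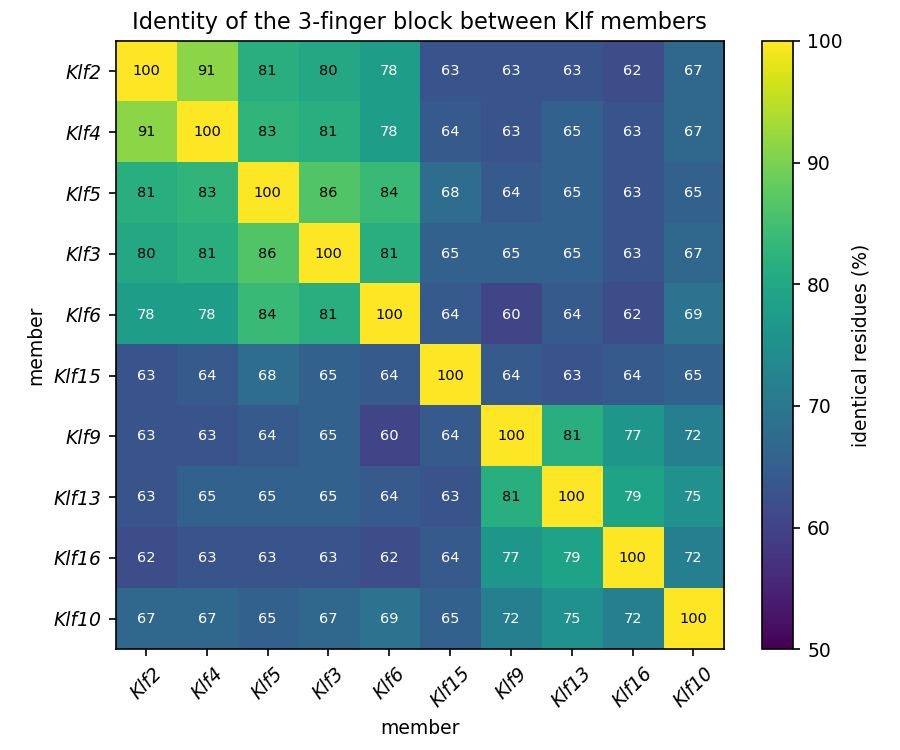
Percent of identical residues in the 81-residue zinc finger block for each pair of the 10 members, written in each cell and shown by colour. Klf2, Klf4, Klf5, Klf3 and Klf6 form one block, with 91 for Klf2 and Klf4, and Klf9, Klf13, Klf16 and Klf10 form another.

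The coding bases of the second finger are shown because reads are told apart by bases, not residues. Each line gives 69 bases of GENCODE M21 transcripts on GRCm38, 5′ to 3′ on the gene's own strand, with capitals where a base differs from Klf2.
Klf2 (chr8:72320761-72320829, plus): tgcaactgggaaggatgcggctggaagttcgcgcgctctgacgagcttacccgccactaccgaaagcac
Klf4 (chr4:55528215-55528283, minus): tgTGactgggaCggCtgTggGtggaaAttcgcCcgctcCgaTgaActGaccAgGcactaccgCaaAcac
Klf5 (chr14:99313168-99313236, plus): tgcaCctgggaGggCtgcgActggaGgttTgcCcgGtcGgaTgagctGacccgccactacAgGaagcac
Klf3 (chr5:64828994-64829062, plus): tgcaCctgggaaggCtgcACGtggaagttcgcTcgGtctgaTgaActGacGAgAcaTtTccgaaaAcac
Klf10 (chr15:38296079-38296147, minus): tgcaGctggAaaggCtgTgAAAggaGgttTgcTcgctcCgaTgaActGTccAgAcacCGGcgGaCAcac
Klf4 differed from Klf2 at 16 of 69 bases but at 2 residues, Klf5 at 13 bases and 3 residues, Klf3 at 16 bases and 3 residues, and Klf10 at 23 bases and 8 residues. The longest run of identical bases between the chosen transcripts of any member pair was 24. At most 0.35% of the 50-base stretches of a member, in Klf3, recurred in any other gene.

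The CtBP-binding motif was searched in the translated proteins as proline, any residue, aspartate, leucine, then serine or threonine. It occurred in 3 of 17 Klf genes, Klf3, Klf8 and Klf12, in none of Sp1 to Sp9, and in 2.02% of 21581 protein-coding genes. RefSeq promoters of GRCm38.p6, 300 bases each, were found for 7 members. Their GC content of 63.0 to 76.7% lay above the median of 52.7% over 32851 promoters, which were not limited to expressed genes. Their observed to expected CpG ratio of 0.659 to 1.18 lay above the median of 0.384. A ratio of at least 0.6, which all 7 reached, was also held by 35.8% of all promoters, so it is not particular to the members. The GC box GGGCGG was read on both strands in 6 of 7 members and 35.7% of all promoters. The CACCC element was read on both strands in 5 of 7 members and 57.5% of all promoters. No member had TATAAA on either strand, which 13.6% of all promoters hold. TTCNNNGAA, with N for any base, was read in 1 of 7 members, Klf9, and in 8.30% of all promoters. The promoters of Klf2 and Klf4 did not hold it, and Klf5 was not among the 7. A match of letters is no binding site, and no binding was measured.

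Because the labelled knockout concerns the carriers of microRNAs, the 3′ untranslated regions (UTRs) of the members were read for matches to the seeds, bases 2 to 8, of microRNAs known from stem cells or from Klf genes. Of 11 listed microRNAs 9 were found in the RefSeq table (GRCm38.p6), and the other two are miR-302a-3p and miR-145a-5p. The 5 whose matches are described first are printed with the seed in capitals; miR-294-3p and miR-291a-3p, of the main cluster of mouse embryonic stem cells, share 1 seed.
miR-294-3p: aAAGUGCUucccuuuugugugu
miR-291a-3p: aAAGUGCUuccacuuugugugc
miR-17-5p: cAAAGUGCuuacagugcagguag
miR-92a-3p: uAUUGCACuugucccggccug
miR-34a-5p: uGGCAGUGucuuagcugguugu
The 10 UTRs held 24 matches to 8 seeds, of which 4 lay in Klf2, Klf4 and Klf5. The UTRs of these genes have 737, 982 and 1707 bases, against 950 to 5157 bases in the rest. The counts are not corrected for length, so they do not show fewer matches per base. Klf5, Klf15 and Klf16 had none, which says only that these letters are missing from their windows.

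Klf2 and Klf4 each had a match to miR-92a-3p followed by A, the extended form of 8 bases. In endothelial cells miR-92a is known to lower both genes. The sites are printed with 9 bases on each side, 5′ to 3′ on the gene's strand of GRCm38, with the 7-base match in capitals.
Klf2, miR-92a-3p (chr8:72321124-72321148, plus): ttcaaaatgGTGCAATaattgactt
Klf4, miR-92a-3p (chr4:55527359-55527383, minus): gtttcagatGTGCAATaatttgtac
Klf4, miR-34a-5p (chr4:55528085-55528109, minus): tgtgacccaCACTGCCaggagagag
Klf13, miR-294-3p (chr7:63889067-63889091, minus): tccaaagagAGCACTTaatttaatt
Klf3, miR-294-3p (chr5:64832461-64832485, plus): acaaatactAGCACTTttttttcct
The Klf2 match began 214 bases after the stop codon in a UTR of 737 bases, and the Klf4 match 751 bases after it in one of 982 bases. Of 1158 other 3′ UTRs within 10% of the length of that of Klf2, 3.28% held the 7-base match to miR-92a-3p and 1.12% the extended form. For Klf4 the shares were 4.77% and 2.04% of 1321 UTRs. The list was drawn in part from microRNAs known from Klf genes, so these shares do not measure how unusual the matches are. Klf6, of the rest, also had a miR-92a-3p match, of 7 bases and 989 bases after its stop codon, and 13.9% of like-length UTRs hold one. The extended miR-34a-5p match of Klf4 had a share of 4.84% of the 1321 UTRs of like length. Klf13, of the rest, also had a miR-34a-5p match, of 7 bases, and 39.1% of its like-length UTRs hold one.

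The seed of miR-294-3p had 4 matches, 2 in Klf13 and 1 each in Klf3 and Klf6, and none in Klf2, Klf4 or Klf5. UTRs as long as that of Klf13, 5157 bases, held it in 53.0% of cases, and those as long as the UTRs of Klf3 and Klf6 in 35.4% and 31.4%. Among UTRs as long as those of Klf2, Klf4 and Klf5 the shares were 7.60%, 10.4% and 18.1%, so most UTRs of these lengths hold no match either. In Klf3 the match overlaps that of miR-17-5p, whose seed pairs with the neighbouring bases. miR-17-5p also had 1 match each in Klf6, Klf9 and Klf10. For Klf3, Klf6, Klf9 and Klf10 the like-length shares of this match were 27.4%, 26.5%, 27.7% and 13.1%. Outside these seeds, Klf9 had 2 matches to miR-30a-5p and Klf10 had 1, and 29.5% and 15.7% of like-length UTRs hold one. miR-200b-3p had 1 match each in Klf3, Klf4, Klf9 and Klf10, against like-length shares of 30.1%, 11.7%, 30.3% and 15.0%. The extended miR-30a-5p match of Klf10 lay 1463 bases after the stop codon in a UTR of 1492 bases, and 7.87% of like-length UTRs hold that form. let-7a-5p had 1 match each in Klf9 and Klf13, against like-length shares of 15.9% and 29.0%. miR-21a-5p had 1 each in Klf3 and Klf6, against 18.5% and 16.9%. No member level can be read against these matches, since no cells with the carriers intact were analysed here and the microRNAs were not measured.

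**Figure D5:**
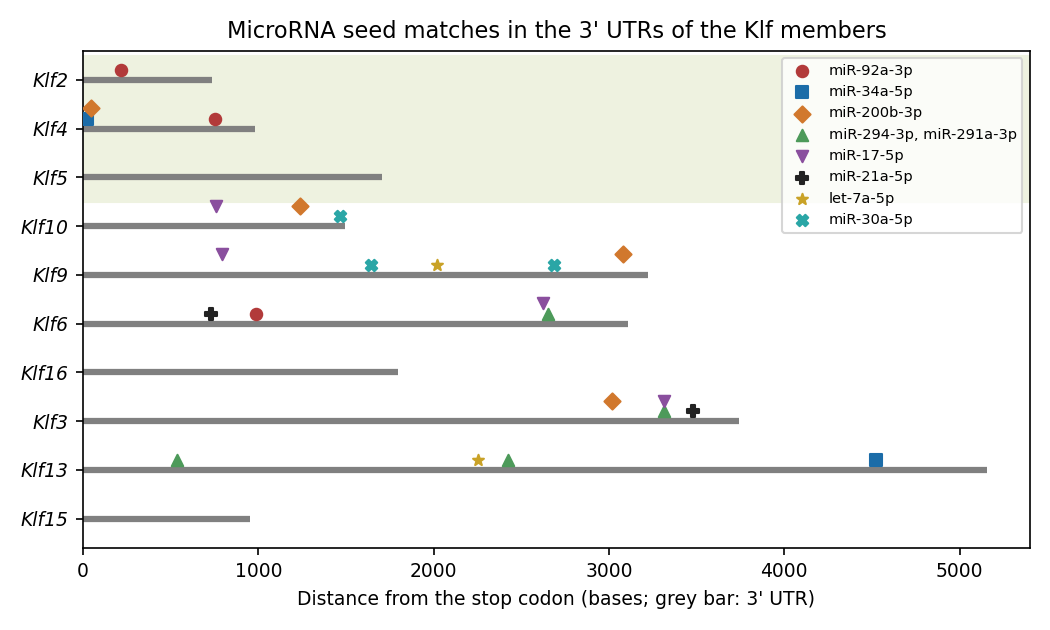
Matches to bases 2 to 8 of the listed microRNAs along the 3′ UTR of each Klf member, as distance from the stop codon in bases; grey bars give the UTR length, the shaded rows are Klf2, Klf4 and Klf5, and markers differ by seed and are raised where they would overlap. Klf2, Klf4 and Klf6 carry miR-92a-3p matches at 214, 751 and 989 bases, and Klf5, Klf15 and Klf16 carry none.

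Transcripts of the factors that act with the Klf proteins were present in both libraries, and no protein was measured. All 7 genes of the LIF and STAT3 list reached 1 CPM, of which the exact binomial test called 2 higher and 1 lower in replicate 2, against 24.2% of all tested genes in either direction. In this list Socs3, a STAT3-induced inhibitor, averaged 106 ± 1.61 TPM, the LIF co-receptor Il6st 55.9 ± 1.88 TPM and the kinase gene Jak1 34.4 ± 1.60 TPM. The LIF receptor gene Lifr had 29.6 and 33.29 TPM in replicates 1 and 2, against 35.5 and 33.27 TPM for Jak1. The order of Jak1 and Lifr thus depended on the library. Lif itself had the lowest mean at 8.17 ± 0.397 TPM, but in replicate 2 Jak2 (8.19 TPM) lay below Lif (8.45 TPM). With the mean coding transcript as length, Il6st (123 TPM) lay above Socs3 (67.0 TPM). Of 8 pluripotency factors all reached 1 CPM, with 5 called higher and 1 lower, against 11.2% and 13.1% of all tested genes. All 8 reached 1000 counts over both libraries, and 39.5% of such genes were called in either direction. Pou5f1, which encodes Oct4, averaged 1687 ± 85.6 TPM, Nanog 661 ± 11.7 TPM and Sox2 552 ± 31.7 TPM, so Klf2 at 541 ± 62.1 TPM stood at the level of Sox2. The orphan receptor gene Nr5a2 was the lowest at 26.2 ± 0.775 TPM. All 9 cofactor genes reached 1 CPM, with 1 called higher and 1 lower, against the same 11.2% and 13.1% of all tested genes. Hdac1 averaged 198 ± 4.85 TPM, Sin3a, the partner of the Klf9 and Klf10 group, 126 ± 0.0926 TPM and Hdac2 123 ± 2.12 TPM, whereas the acetyltransferase gene Crebbp was the lowest at 10.3 ± 0.123 TPM. With the mean coding transcript as length, Ctbp2 (230 TPM) lay above Hdac1 (187 TPM). In edgeR's exact test no gene of these lists was called, and 0 had an unadjusted p under 0.05.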

How the data were processed

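Polyadenylated RNA of 2 libraries of 1 genotype was measured. The protocols in the labels give Trizol extraction and a reverse-stranded TruSeq kit with 1 ug of total RNA. The submitters' processing notes name STAR 2.4.2a and the build GRCm38 (mm10). The authors deposited raw counts, whole numbers for each Ensembl gene. Their counting tool, strand setting and annotation were not given in the sources used here.

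Of 47643 IDs 47224 were named with GENCODE M21, of the same build. TPM was computed from counts and merged exon length, and log2 levels used TPM + 1. The libraries were compared across all 19078 genes with at least 10 counts in total by a two-sided exact binomial test at TMM-scaled sizes (factors 0.9993 and 1.001), with Benjamini-Hochberg adjustment, a threshold of 0.05 and a pseudocount of 0.5 counts in ratios. The alternative was edgeR 4.0.16's exact test with a trended dispersion estimated from both libraries as 1 group (R 4.3.3; common coefficient of variation 9.95%), which therefore contains the differences it weighs. DESeq2 1.42.0 gave size factors. The trend on GC content and length was removed by lowess (fraction 0.3). The tests were tested on simulated data: once spread between libraries was added, the binomial test also called many unchanged genes. edgeR's exact test then missed most of the smallest changes, which were larger than any member's ratio, and many of the middle ones. Zinc fingers were read from translated GENCODE transcripts, in place of the RefSeq proteins first planned. Intervals are at 95%.

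The members, lists, tests and the rule for named genes (every Klf gene, Sp1 to Sp9, and the 3 highest and the lowest in TPM of each context list) were chosen with earlier results of these data known. One context list, of protein turnover, is not reported here. At this depth 3 counts equal 0.0862 and 0.101 CPM in replicates 1 and 2.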

Additional observations from a re-analysis of the deposited data

How the results depend on the processing

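The share of TPM held by Klf2, Klf4 and Klf5 was 66.0% ± 1.53. It moved to 61.5% with the longest transcript as length, 50.9% with the mean coding transcript, 44.7% in CPM and 61.7% with every Klf gene. With 2 libraries, leaving 1 out only returns the value of the other, 64.9% or 67.1%, and is no further check. The difference of median log2 levels between these genes and the rest, 0.35, was 0.45 and 0.24 in replicates 1 and 2 taken singly. It was -0.12 in CPM, 1.31 with means in place of medians and 0.84 against every other Klf gene. It averaged 0.36 to 0.37 under both other lengths and a pseudocount of 0.1. With the longest transcript it was 0.24 in replicate 1 and 0.49 in replicate 2. Under that length Klf5 (mean 51.6 TPM) lay above Klf4 (39.7 TPM). Of the 10 member levels, 10 moved by more than their SD with the longest transcript and 9 with the mean coding transcript. The exact binomial test called 7 members, also with DESeq2 size factors, with library totals and with at least 100 counts. It called 6 with genes from 1 count, where Klf13 had an adjusted p of 0.062, and 6 after removal of the trend on GC content and length, where the log2 ratio of Klf15 was 0.051 in place of -0.01 without passing. edgeR's exact test called 0, with 0 at an unadjusted p under 0.05. No paired analysis was possible because the series holds 1 group. With 1 library on each side no residual spread between libraries is left for a test, and the levels rest on 2 libraries.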

Other observations

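The Sp genes, the closest relatives of the Klf family with the same 3-finger block, were present with 6 of 9 at 1 CPM in both libraries. Sp1, the general activator at GC boxes, had 125 and 120.0 TPM in replicates 1 and 2, the highest of its family and below Klf2 alone among the 10 Klf members described. Sp3 averaged 59.6 ± 1.09 TPM and Sp2 29.4 ± 1.79 TPM. Sp6 (5.32 ± 0.394 TPM), Sp4 (4.13 ± 0.314 TPM) and Sp5 (1.83 ± 0.0355 TPM) were lower. Sp7, of bone formation, had 21 and 28 counts, Sp8 had 18 and 8 and Sp9 had 6 and 5. The exact binomial test called 1 of 9, Sp1, lower in replicate 2 by a log2 ratio of -0.05 (adjusted p = 0.0256), against 24.2% of all tested genes in either direction and 13.1% lower. edgeR's exact test called 0, against 0.440%, with 0 at an unadjusted p under 0.05.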
